A study of Mus musculus with 6 samples.

Results

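The cytosolic chaperonin CCT and its partner prefoldin were described here through 10 genes: the CCT ring subunits Tcp1, Cct2, Cct3, Cct4, Cct5, Cct6a, Cct7 and Cct8, and the prefoldin subunits Pfdn1 and Pfdn5. Every probe set that the array annotation assigned to exactly 1 of these symbols was included, which gave 25 probe sets of the 19078 that carried 1 symbol, for 10 of 11429 genes. The 8 ring subunits held 21 of the probe sets and the 2 prefoldin genes held 4.

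The study set mature mouse oocytes at metaphase II (MII, arrested with a polar body until fertilization) against immature oocytes at the germinal vesicle stage (GV, fully grown, with an intact nucleus and arrested in prophase of meiosis). It asked which transcripts change and which stay stable during oocyte maturation. There were 3 biological replicates of each stage, each a pool of 300 oocytes measured on 1 Affymetrix array. RNA of whole oocytes was measured from the same mass of RNA per pool, so amounts per oocyte were not measured. The MII oocytes came from mice 22 to 24 days old that received 5 IU of equine chorionic gonadotropin (eCG) and 5 IU of human chorionic gonadotropin (hCG). They were taken from the oviducts 14 h after hCG and freed of cumulus cells with 1 mg/ml hyaluronidase. The GV oocytes came from large antral follicles of mice of the same age, 44 to 46 h after 5 IU of eCG and without hCG, and were stripped of cumulus cells with a fine pipette. Milrinone, an inhibitor of the oocyte phosphodiesterase, was present at 5 µM to hold the GV oocytes in arrest, and the labels say that MII oocytes were collected in the same medium, without saying whether milrinone was in it. Labelling started from 10 ng of RNA per pool and used 2 amplification rounds, primed by a commercial primer mixture in place of oligo(dT). Strain and genotype were not used here. Stage, hormone treatment, site of collection and the way of removing cumulus cells changed together, as milrinone may have, and cannot be told apart.

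CCT, also called TRiC, is built of a pair of stacked rings, each with one copy of every subunit, and uses ATP to fold proteins inside its cavity. Its best known clients are actin and tubulin, and it also folds WD40 proteins, among them the anaphase-promoting complex activators Cdc20 and Cdh1 (gene Fzr1). Prefoldin is a jellyfish-shaped hexamer of alpha-type and beta-type subunits that catches nascent actin and tubulin chains and hands them to CCT. An oocyte maturing to MII assembles a meiotic spindle and remodels its actin cortex, both made of CCT clients.

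On the deposited scale all 8 ring subunits fell in MII oocytes and no member rose, but with array medians made equal Cct7 and Cct8 turned to small positive differences that were not called and Pfdn5 was called higher. The size of the fall was uneven around the ring: by the brightest probe set of each gene, Cct5 fell most, Cct2 and Cct3 next, Cct4, Cct6a and Tcp1 less, and Cct7 and Cct8 least. By the mean over a gene's probe sets, Cct5 (-3.52) and Cct2 (-3.10) again came first and Cct7 (-0.56) and Cct8 (-0.46) last, but the middle ran Cct6a (-2.64), Cct3 (-2.23), Tcp1 (-1.78) and Cct4 (-1.43). Of the prefoldin subunits, Pfdn1 fell, and Pfdn5 had no probe set that passed the test. In the counts that follow, "called" means an adjusted p under 0.05 in limma's moderated test after Benjamini-Hochberg adjustment across the whole table of 21646 probe sets. Of the 25 member probe sets 21 were called lower in MII oocytes, against 34.1% of all probe sets, 0 were called higher, against 10.9% of all, and 4 were not called. The fall was at least 2-fold in 17 of them, against 20.6% of all probe sets, and at least 4-fold in 10, against 8.82% of all. All MII values lay below all GV values in 22 of the 25, against 39.4% of all probe sets. Counted by gene, with the probe set of highest mean standing for each, 9 of the 10 members were called lower, against 37.8% of all genes, and 0 higher, against 10.5%. The median MII minus GV difference was -1.56 on the log2 scale over the 25 member probe sets, and -0.15 over all tested probe sets. The median over the 8 ring subunits was -2.12, against -0.20 over all genes.

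**Figure D1:**
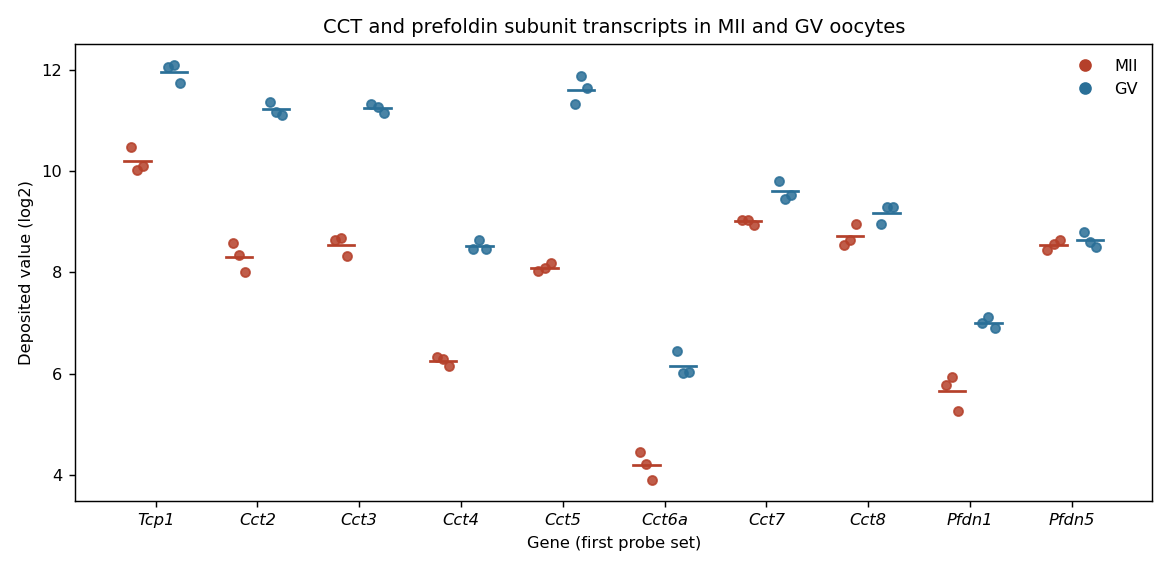
Deposited log2 value of the first probe set of each of the 10 genes on each array, with MII oocytes on the left and GV oocytes on the right of each pair (points are the 3 arrays of a stage, bars the mean). The MII points lie below the GV points for every ring subunit and for Pfdn1, with the widest gap for Cct5 and narrow gaps for Cct7 and Cct8, and the points of Pfdn5 overlap, all on the deposited scale, since Cct7, Cct8 and Pfdn5 turn sign with equal array medians. Heights of different genes are not comparable, since probe sets differ in brightness.

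The promoters of the ring subunits that fell most and least, among those with a window in the RefSeq tables, are shown so that the most and least changed genes can be set side by side. Each window runs from 250 bases before to 50 bases after a transcription start, 5′ to 3′ on the strand of the gene, in build GRCm38.p6. Capitals mark matches, on either strand, to the letters searched: the GC box GGGCGG, the CCAAT box CCAAT, the ETS motif CCGGAAG, the TATA box TATAAA, the E box CACGTG and both phases of the heat shock element, GAANNTTC and TTCNNGAA, where N is any base. The windows are those of Cct5 (chr15:31601797-31602096, minus strand), Cct2 (chr10:117063803-117064102, minus strand), Cct7 (chr6:85451255-85451554, plus strand) and Cct8 (chr16:87495820-87496119, minus strand).
Cct5: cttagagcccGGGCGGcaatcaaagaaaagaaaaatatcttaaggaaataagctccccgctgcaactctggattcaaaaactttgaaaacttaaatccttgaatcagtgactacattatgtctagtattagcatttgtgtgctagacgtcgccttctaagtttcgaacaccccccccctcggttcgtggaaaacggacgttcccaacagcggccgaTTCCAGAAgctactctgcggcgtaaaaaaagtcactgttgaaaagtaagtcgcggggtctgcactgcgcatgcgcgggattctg
Cct2: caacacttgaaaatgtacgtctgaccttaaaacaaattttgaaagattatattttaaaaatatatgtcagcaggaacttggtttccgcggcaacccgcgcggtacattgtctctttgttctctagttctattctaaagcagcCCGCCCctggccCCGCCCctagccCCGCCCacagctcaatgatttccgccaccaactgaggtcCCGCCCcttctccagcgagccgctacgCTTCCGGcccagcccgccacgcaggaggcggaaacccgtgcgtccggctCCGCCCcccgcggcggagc
Cct7: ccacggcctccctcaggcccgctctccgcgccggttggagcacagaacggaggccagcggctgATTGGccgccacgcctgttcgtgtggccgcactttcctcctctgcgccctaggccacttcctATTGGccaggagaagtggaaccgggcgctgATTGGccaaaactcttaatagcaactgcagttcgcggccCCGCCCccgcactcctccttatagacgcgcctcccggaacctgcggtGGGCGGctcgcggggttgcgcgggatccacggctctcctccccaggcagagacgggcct
Cct8: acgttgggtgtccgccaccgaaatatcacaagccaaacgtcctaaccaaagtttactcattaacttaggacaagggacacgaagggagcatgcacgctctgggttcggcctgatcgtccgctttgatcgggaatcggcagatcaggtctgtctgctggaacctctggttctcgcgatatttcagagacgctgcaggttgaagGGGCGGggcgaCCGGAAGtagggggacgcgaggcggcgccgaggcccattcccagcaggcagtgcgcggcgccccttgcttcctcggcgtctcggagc
The Cct5 window held 47.3% G and C, 1 GC box and 1 heat shock element match 34 bases before the start. The first of 2 Cct2 windows held 57.3% G and C, 5 GC boxes and 1 ETS match. The Cct7 window held 67.7% G and C, 2 GC boxes and 3 CCAAT boxes. The Cct8 window held 60.3% G and C, 1 GC box and 1 ETS match. The second Cct2 window, not printed, held 67% G and C, 2 GC boxes and 1 heat shock element match 42 bases before the start. A heat shock element, in either phase, thus stood in 1 of 2 windows each of Cct5 and Cct2. The second Cct5 window held none of the motifs. The windows of Cct7, Cct8, Cct3 and Tcp1 held no heat shock element, and that of Cct6a held 1, 24 bases after the start. Whether this motif goes with the size of the fall was not tested.

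Windows were found for 8 of the 10 genes, 10 windows in all, with Cct2 and Cct5 having 2 each. Cct4 had no window in the table and Pfdn1 was not searched. A GC box stood in 9 of the 10 member windows, against 35.7% of all 32851 windows of this length. A CCAAT box stood in 4 of 10, against 37.4% of all windows, and an ETS match in 3 of 10, against 8.86%. The heat shock element as GAANNTTC stood in 1 of 10 windows, against 7.86% of all, and as TTCNNGAA in 2 of 10, against 8.52%. Neither TATAAA, in 13.6% of all windows, nor CACGTG, in 7.15%, was found in any of the 10. The member windows held 47.3% to 67.7% G and C, and 9 of the 10 lay above the median of 52.7% over all windows. These matches are descriptions of letters and no binding was measured.

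Cct5, the epsilon subunit, had values of 8.03, 8.08 and 8.18 in MII oocytes, against 11.33, 11.87 and 11.64 in GV oocytes, all on the deposited log2 scale. The stages were far apart, and the MII arrays were close together. The difference was -3.52 ± 0.16 (MII minus GV, log2, SE, n = 3 each), an 11.5-fold lower signal in MII oocytes (limma, adjusted p = 9.09e-08). Only 1 probe set measured this gene.

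Cct2, the beta subunit, had 8.58, 8.35 and 8.0 in MII oocytes, against 11.37, 11.17 and 11.11 in GV oocytes, in its brightest probe set, 1433535_x_at. All MII values lay well below all GV values. The difference was -2.91 ± 0.17, 7.52-fold lower (limma, adjusted p = 4.26e-07). Its other probe sets fell too, with -2.77 on the log2 scale in 1416037_a_at and -3.61 in 1433534_a_at, a 12.2-fold fall and the largest of the 25 member probe sets.

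Cct3, the gamma subunit, had 8.64, 8.67 and 8.32 in MII oocytes, against 11.33, 11.27 and 11.15 in GV oocytes, in 1448178_a_at. The stages did not overlap. The difference was -2.71 ± 0.15, 6.52-fold lower (limma, adjusted p = 2.43e-07). Of its 5 probe sets the 3 brightest gave differences of -2.82 to -2.70 on the log2 scale, and the dimmer 1449645_s_at gave -1.56. In 1426067_x_at, where all MII values were below the median of every MII array, the difference was -1.34 or lower. In 1449645_s_at the MII arrays spread from 4.97 to 6.02, the widest spread within a stage of any member probe set (SD 0.60).

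Cct4, the delta subunit, was measured by 6 probe sets, more than any other member. The brightest, 1433447_x_at, had 6.32, 6.29 and 6.14 in MII oocytes, against 8.46, 8.64 and 8.46 in GV oocytes. The arrays of a stage agreed closely and the stages were apart. The difference was -2.27 ± 0.13, 4.82-fold lower (limma, adjusted p = 4.37e-07). In 1430034_at the MII values were 5.67, 5.49 and 5.65, against 5.88, 5.98 and 5.92 in GV oocytes, a difference of -0.33 ± 0.13 that was not called (limma, adjusted p = 0.0685), although the stages did not overlap. The others were called lower, with -1.50 in 1415867_at and, as bounds because the MII arrays' medians were not reached, -2.60 or lower in 1438560_x_at and -1.0 or lower in 1456082_x_at. The last, 1456572_x_at, gave -0.89, but its GV values (4.01, 4.24 and 3.52) also lay below the median of every GV array. With equal array medians 1456082_x_at (-0.38) and 1456572_x_at (-0.27) were not called. Without moderation of the variance 1456572_x_at was not called either.

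Cct6a, the zeta subunit, had 4.44, 4.21 and 3.89 in MII oocytes, against 6.44, 6.01 and 6.02 in GV oocytes, in 1423517_at. The stages did not overlap, and the MII values lay below the median of every MII array (5.47 to 5.49). For a member with all MII values below those medians the fall is given as a bound, since no detection call accompanied the values. Where all GV values lay below the GV medians too, the measured difference is given without a bound. Figures and within-array differences show the measured value. The signal was at least 3.93-fold lower in MII oocytes (difference -1.97 ± 0.18, limma, adjusted p = 1.04e-05). In 1455988_a_at it was at least 9.95-fold lower, with 2.95, 3.02 and 2.69 in MII oocytes, against 6.76, 5.85 and 5.99 in GV oocytes. Of the 25 member probe sets 7 had such low MII values.

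Tcp1, the alpha subunit and the first to be described, had 10.47, 10.02 and 10.09 in MII oocytes, against 12.06, 12.10 and 11.74 in GV oocytes. The stages did not overlap. The difference was -1.78 ± 0.17, 3.42-fold lower (limma, adjusted p = 1.27e-05).

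Cct7, the eta subunit, had 9.03, 9.04 and 8.95 in MII oocytes, against 9.81, 9.46 and 9.53 in GV oocytes. The stages were close but did not overlap. The difference was -0.59 ± 0.14, 1.51-fold lower (limma, adjusted p = 0.00698). Its second probe set, 1415817_s_at, gave -0.52 ± 0.14 (limma, adjusted p = 0.0113). With equal array medians the values were 0.03 and 0.10, neither called.

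Cct8, the theta subunit, had 8.55, 8.65 and 8.95 in MII oocytes, against 8.95, 9.29 and 9.28 in GV oocytes. The highest MII array and the lowest GV array were almost level. The difference was -0.46 ± 0.16, 1.38-fold lower, close to the threshold (limma, adjusted p = 0.0423). With equal array medians the difference was 0.16, not called. On the deposited scale the call was lost without GV replicate 2 (difference -0.40), GV replicate 3 (-0.41), MII replicate 1 (-0.38) or MII replicate 2 (-0.43). It was also lost without moderation of the variance.

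Pfdn1, a beta-type prefoldin subunit, had 5.78, 5.92 and 5.26 in MII oocytes, against 6.99, 7.12 and 6.89 in GV oocytes. The stages did not overlap. The difference was -1.35 ± 0.18, 2.55-fold lower (limma, adjusted p = 0.000173).

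Pfdn5, an alpha-type prefoldin subunit also known as the Myc-binding protein MM-1, had 8.44, 8.57 and 8.64 in MII oocytes, against 8.80, 8.61 and 8.50 in GV oocytes. The stages overlapped. The difference was -0.09 ± 0.14, with a 95% confidence interval of -0.40 to 0.23 (limma, adjusted p = 0.659). The other probe sets gave 0.25 ± 0.17 in 1460637_s_at (limma, adjusted p = 0.275) and 0.10 ± 0.15 in 1438358_x_at (limma, adjusted p = 0.636), and the last of these was dim on all arrays, between 2.07 and 2.54. Within an array, Pfdn1 minus Pfdn5 was -2.66, -2.64 and -3.38 in MII oocytes, against -1.81, -1.49 and -1.60 in GV oocytes. The stages did not overlap, and the MII minus GV difference of -1.26 ± 0.26 had p = 0.1 in an exact permutation test, 2-sided, the smallest that 3 against 3 arrays allow.

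**Figure D2:**
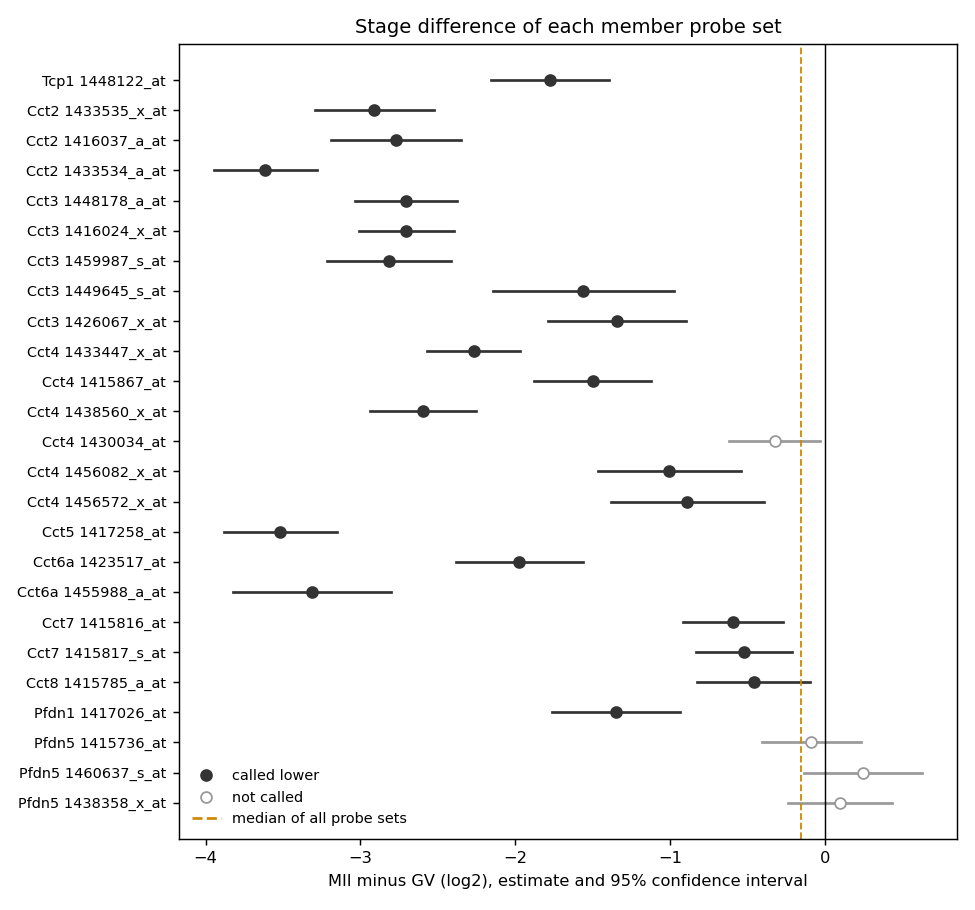
MII minus GV difference (log2) of each of the 25 member probe sets, with its 95% confidence interval from the limma fit. Filled points were called lower, open points were not called, and the dashed line is the median of all tested probe sets (-0.15). The probe sets of Cct4 run from -2.60 to -0.33, while both probe sets of Cct7 lie near -0.5 on this deposited scale and above 0 with equal array medians.

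How far probe sets of one gene agreed was measured within arrays, which cancels any constant added to an array. There were 33 such pairs, and in 20 the MII and GV values of the within-array difference did not overlap (exact permutation p = 0.1 each, Benjamini-Hochberg adjusted p = 0.165 over the 33). No share over pairs of other probe sets was computed beside this count or the next ones. Over single probe sets, 8532 of 21646 had all MII values below all GV values, and 3156 had them above. In 15 pairs the falls differed by at least 1 on the log2 scale. In 19 of the 33 pairs a probe set had all its MII values below the median of every MII array, so that its fall is at best a bound. Among the other 14, 8 did not overlap and 5 differed by at least 1. In Cct4, 1433447_x_at and 1430034_at, neither of them that low in MII oocytes, differed by -1.94 ± 0.10. The GV values of 1430034_at (5.88, 5.98 and 5.92) all lay below the median of every GV array, so this pair also rests on a dim probe set. The closest agreement was between 1448178_a_at and 1416024_x_at of Cct3, whose falls differed by -0.0021 ± 0.081. The pair for Cct7 differed by -0.07 ± 0.07.

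The names of probe sets carry a warning that bears on these gaps. An ending in _a_at marks probes shared by transcripts of one gene, _s_at probes shared by several transcripts, and _x_at probes that may also bind unrelated sequences. Of the 25 member probe sets 5 ended in _a_at, of which 5 were called lower, 4 in _s_at, of which 3 were, 8 in _x_at, of which 7 were, and 8 had none of these endings, of which 6 were. Over all probe sets of any ending 34.1% were called lower, and the share within each ending was not computed. In the RefSeq annotation Tcp1 overlaps Mrpl18 and Acat3, Cct6a overlaps Psph, Cct7 overlaps Pradc1 and Cct8 overlaps Usp16. Whether transcripts of those genes reached the probes was not tested.

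The ring subunits were then compared with each other, also within arrays, by the first probe set of each. Ordered by the size of the fall they ran Cct5, Cct2, Cct3, Cct4, Cct6a, Tcp1, Cct7, Cct8. Of the 28 pairs, 23 had MII and GV differences that did not overlap (exact permutation p = 0.1 each, the smallest possible, Benjamini-Hochberg adjusted p = 0.122 over the 28), so that no pair could pass 0.05 in this design. No share over pairs of other probe sets was computed beside this count or the next ones, and the pairs share subunits. In 16 pairs the falls differed by at least 1 on the log2 scale. The 7 pairs with Cct6a, and its place in the order, rest on MII values whose fall is only a bound. Among the other 21 pairs, 18 did not overlap and 13 differed by at least 1.

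The neighbours in that order whose stages overlapped were Cct5 and Cct2 (-0.61 ± 0.31), Cct2 and Cct3 (-0.21 ± 0.10), Cct4 and Cct6a (-0.30 ± 0.21), Cct6a and Tcp1 (-0.20 ± 0.18) and Cct7 and Cct8 (-0.13 ± 0.26, exact permutation p = 0.7). Each value is the difference in MII minus GV between the first-named and the second-named subunit, with its SE. The remaining neighbours did not overlap: Cct3 against Cct4 (-0.44 ± 0.09) and, with the widest step in the order, Tcp1 against Cct7 (-1.18 ± 0.19). With Cct6a left out, Cct4 and Tcp1 became neighbours and did not overlap either (-0.49 ± 0.15).

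The extreme pair shows what this meant on each array. Cct5 minus Cct8 was -0.52, -0.57 and -0.77 in MII oocytes, against 2.38, 2.58 and 2.35 in GV oocytes, a change of -3.06 ± 0.11. The probe set of Cct5 was brighter than that of Cct8 on every GV array and dimmer on every MII array. Brightness of different probe sets is not a measure of their transcripts' relative amounts, so only the change can be read. In the assembled ring, as known from the complex of yeast and mammals, Cct8, Cct7 and Cct5 follow each other, so the 2 subunits that fell least and the 1 that fell most sit side by side.

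**Figure D3:**
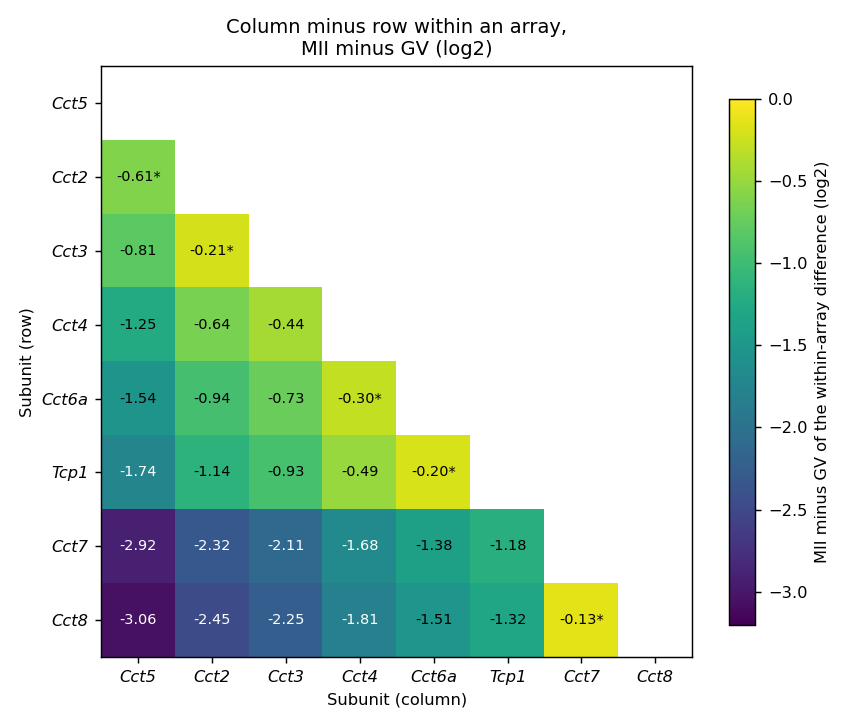
Change between stages of the within-array difference between each pair of ring subunits (column minus row, MII minus GV, log2, first probe sets), with subunits ordered from the largest fall to the smallest. An asterisk marks the 5 pairs in which the MII and GV values overlapped. The Cct7 and Cct8 rows run from -3.06 to -1.18 against the other 6 subunits, and Cct5 reaches -1.74 against Tcp1. Values with Cct6a rest on low MII signals.

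Each subunit was also set against the mean of the other 7 on the same array and fitted by limma over all probe sets. This comparison was added after the values were seen. Relative to the other subunits, Cct5 (-1.70 ± 0.19), Cct2 (-1.01 ± 0.17) and Cct3 (-0.78 ± 0.15) were lower in MII oocytes, with Benjamini-Hochberg adjusted p of 2.9e-06, 9.17e-05 and 0.000364. Cct8 (1.79 ± 0.21) and Cct7 (1.64 ± 0.16) were higher relative to the others, with adjusted p of 3.4e-06 and 8.74e-07. Tcp1 (0.29 ± 0.17, adjusted p = 0.122), Cct4 (-0.28 ± 0.15, adjusted p = 0.0895) and Cct6a (0.06 ± 0.18, adjusted p = 0.757) were not called. The 5 called of 8 stand against 93.1% of all probe sets called in either direction relative to the mean of the ring, which itself fell by 2.03. With so large a share called, the adjustment corrects little for the number of tests. Other probe sets were set against the mean of all 8 subunits, so the 2 shares are not alike. The mean includes Cct6a, whose fall is only a bound.

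The scale between arrays moved the smallest of these differences across 0. The deposited array medians differed between stages, at 5.49, 5.47 and 5.49 in MII oocytes, against 6.12, 6.10 and 6.10 in GV oocytes. Making the array medians equal raised all differences by 0.62. On that scale 16 member probe sets were lower, against 19.9% of all, and 3, all of Pfdn5, were higher, against 55.5% of all. Of these 3, 1438358_x_at was dim on all arrays, between 2.07 and 2.54 as deposited, and was not called with quantile normalization (0.15). Cct7 (0.03) and Cct8 (0.16) were then not called, and 6 of the 8 ring subunits were lower.

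Quantile normalization raised the median difference by 0.34, with 17 member probe sets lower, against 22.1% of all, and 2 higher, against 34.8%. Again 6 of 8 ring subunits were lower, with Cct7 (-0.19) and Cct8 (0.03) not called. Making the spiked hybridization controls equal lowered the median by 0.40, with 20 member probe sets lower, against 33.2% of all, and 0 higher, against 0.48%, and Cct8 (-0.86) not called. Making the poly-A control features equal lowered the median by 0.87, with 25 of 25 lower, against 84.9% of all, and 0 higher, against 0.3%. The mean of these features was 5.14, 5.43 and 5.34 in MII oocytes, against 4.71, 4.28 and 4.31 in GV oocytes. On every array it lay below the array's median, so this scale rests on dim features. Cct5, Cct2, Cct3, Cct4, Cct6a, Tcp1 and Pfdn1 were called lower on all 5 scales, by the first probe set of each. The direction of Cct8 and Pfdn5, and under equal medians of Cct7, depended on the scale.

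**Figure D4:**
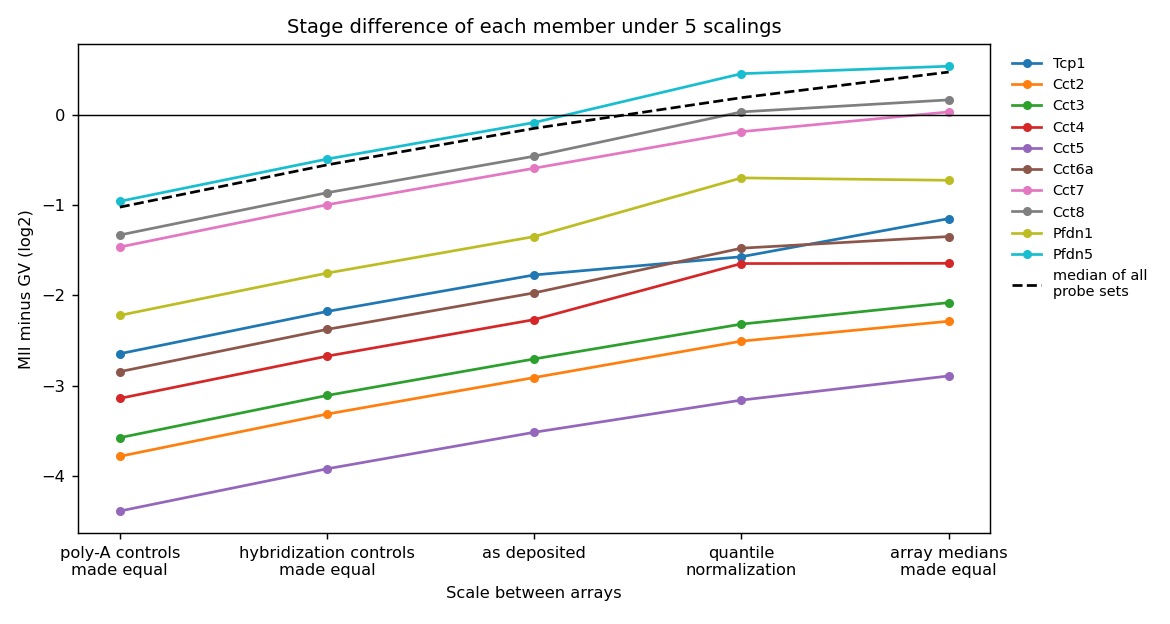
MII minus GV difference (log2) of the first probe set of each member under 5 scales between arrays, ordered by their shift, with the median of all tested probe sets dashed. Apart from quantile normalization each scale adds one constant to all genes, so the distances are fixed there. Under quantile normalization Tcp1 and Cct6a swap places, and Cct7, Cct8 and Pfdn5 are the members whose lines cross 0.

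The identity of the cells was checked by markers. All 13 oocyte markers measured were brighter, on average, than the median probe set, among them Gdf9 (12.39, 12.62 and 12.77 in MII oocytes, against 12.52, 12.62 and 12.37 in GV oocytes). Of these 13, 6 were lower in MII oocytes, 2 higher and 5 not called (6 lower and 5 higher with equal array medians). Marker counts in this paragraph stand beside 37.8% of all genes lower and 10.5% higher. With equal array medians they stand beside 19.9% of all probe sets lower and 55.5% higher. The lower oocyte markers were the zona pellucida genes Zp2 (-4.26), Zp3 (-2.76) and Zp1 (-1.26), the transcription factors Nobox (-2.23) and Figla (-1.22) and the kinase gene Mos (-1.30), named after their values were seen. The higher ones were Bmp15 (0.69, with -0.33 and -0.22, not called, in its other probe sets) and H1f8 (0.66, with overlapping stages). Of 10 granulosa and cumulus markers 6 were measured, 3 of them lower in MII oocytes and 0 higher (1 lower and 2 higher with equal array medians). Of these 6, 2 were brighter, on average, than the median probe set. The summed linear signal of the 6 was 250.3 to 321 on the MII arrays, against 420 to 481 on the GV arrays. This sum moved in the same direction as the ring subunits, and its part in their fall was not tested. The 4 of 7 cumulus expansion markers measured had summed signals of 23.3 to 27.6 on the MII arrays, against 21.9 to 26.6 on the GV arrays, and 0 of them were brighter, on average, than the median probe set. Over all probe sets the correlation between arrays was 0.988 to 0.991 within a stage, against 0.885 to 0.906 between stages, and no array stood apart from its stage.

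Of 12 listed genes for other prefoldin subunits and cofactors of CCT, 10 were measured, of which 6 were lower, 1 was higher and 3 were not called, with a median difference of -0.98. The counts of this and the next lists stand beside 37.8% of all genes lower and 10.5% higher, and with equal array medians beside 19.9% and 55.5% of all probe sets. Pfdn6, a beta-type prefoldin subunit, had 4.02, 4.55 and 4.35 in MII oocytes, against 8.77, 9.34 and 9.01 in GV oocytes, an at least 26.6-fold fall (-4.73 ± 0.19, limma, adjusted p = 4.42e-08). Uxt, a prefoldin-like protein, had 3.87, 3.55 and 3.38 in MII oocytes, against 7.73, 8.10 and 7.82 in GV oocytes, at least 19.5-fold lower (-4.28 ± 0.17, limma, adjusted p = 4.28e-08). Both falls were larger than that of any member. Vbp1, the alpha-type prefoldin subunit beside Pfdn5, fell by 2.08 ± 0.19.

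Pfdn2 (-0.40 ± 0.26) and Pfdn4 (-0.31 ± 0.18), the remaining beta-type subunits, were not called, and both were positive with equal array medians (0.22 and 0.31). Of the 6 prefoldin subunits, Pfdn6, Vbp1 and Pfdn1 were thus called lower, and Pfdn2, Pfdn4 and Pfdn5 were not called. Uri1, a prefoldin-like protein, was higher in its brightest probe set (0.95 ± 0.26, limma, adjusted p = 0.0122), with 8.41, 7.38 and 7.57 in MII oocytes, against 7.12, 6.79 and 6.62 in GV oocytes. Its other probe sets disagreed, 1 called higher (0.60 ± 0.13) and 1 lower (-1.88 ± 0.19). The brightest was not called with either set of control features made equal, or without moderation of the variance. Among the phosducin-like cofactors, Txndc9 fell (-1.43 ± 0.21, with -5.38 and, at low signal in both stages, -2.05 in its other probe sets). Pdcl3 was called lower (-0.53 ± 0.17), but not with equal array medians (0.092) or quantile normalization (-0.19). Pdcl (-0.39 ± 0.15) was not called, and was positive on those scales (0.24 and 0.29). Pdcl3, Txndc9, Pdcl, Pfdn2 and Pfdn4 were named in addition to the genes picked by rule, after their values were seen.

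The tubulin cofactors, which take tubulin from CCT and assemble the heterodimer, gave 5 of 7 genes lower, 0 higher and 2 not called, with a median of -1.22. With equal array medians 5 were lower and 1 was higher. Tbcb, which acts on alpha-tubulin, had 6.58, 6.67 and 6.62 in MII oocytes, against 9.60, 9.56 and 9.46 in GV oocytes, a fall of 2.92 ± 0.13. Tbcc, which acts last in the pathway, had a difference of -1.88 or lower, its MII values all being below the median of every MII array, and Tbca, which binds beta-tubulin, had one of -1.35 ± 0.15.

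Of 21 listed actin and tubulin genes, the main clients, 16 were measured, of which 10 were lower, 1 was higher and 5 were not called, with a median of -1.31. With equal array medians 9 were lower and 6 higher. Tuba4a, an alpha-tubulin, had 7.06, 7.46 and 7.06 in MII oocytes, against 12.93, 13.02 and 12.93 in GV oocytes, a 54.5-fold fall (-5.77 ± 0.15). Its second probe set fell by 2.56 ± 0.19. Of the beta-tubulins, the difference was -4.31 ± 0.16 for Tubb2b and -3.35 ± 0.17 for Tubb5, the last with a second probe set at -0.50 ± 0.15.

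Tube1, the epsilon-tubulin of centrioles, was called higher (0.63 ± 0.23, limma, adjusted p = 0.043), but its stages overlapped, with 10.47, 10.17 and 10.18 in MII oocytes, against 9.40, 9.32 and 10.19 in GV oocytes. Actb, cytoplasmic beta-actin, was not called (0.44 ± 0.16, limma, adjusted p = 0.0546), with 10.69, 10.26 and 10.55 in MII oocytes, against 9.92, 9.99 and 10.28 in GV oocytes. The call of Tube1 was lost with the hybridization controls made equal (0.23), without moderation, and when any single array other than GV replicate 3 was left out (0.48 to 0.69). The second Actb probe set gave -0.48 ± 0.27, not called, and the first was called higher with equal array medians (1.06) and quantile normalization (0.73). Tube1 and Actb changed sign when the poly-A controls were made equal, to -0.24 and -0.44.

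Of 13 listed WD40 and cell cycle clients, 12 were measured, with 3 lower, 1 higher and 8 not called and a median of -0.20, against -0.20 over all genes. With equal array medians 1 was lower and 7 were higher. Fzr1, which encodes Cdh1, had 5.50, 5.59 and 5.64 in MII oocytes, against 7.55, 8.08 and 7.54 in GV oocytes, a fall of 2.14 ± 0.17. Cdc20, the other activator, was not called (0.38 ± 0.16, limma, adjusted p = 0.0791), with 11.18, 11.48 and 11.20 in MII oocytes, against 10.85, 11.14 and 10.71 in GV oocytes. Plk1, a kinase of the spindle, fell by 0.65 ± 0.16 and Gnb5, a G protein beta subunit, fell by 0.57 ± 0.18, while Gnb2, another, was higher by 0.78 ± 0.14. The Gnb5 call was lost when GV replicate 1, GV replicate 2, MII replicate 2 or MII replicate 3 was left out (-0.60 to -0.41), and without moderation. Under equal array medians Plk1 and Gnb5 were not called and Cdc20 was called higher, and with the poly-A controls equal Cdc20 (-0.49) and Gnb2 (-0.09) changed sign.

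The mitochondrial chaperonin, a separate machine of the same fold family, is made of Hspd1 and its lid Hspe1. Hspd1 had 9.95, 9.65 and 9.50 in MII oocytes, against 10.53, 10.43 and 10.24 in GV oocytes, a fall of 0.70 ± 0.16. Hspe1 had 8.63, 8.67 and 8.48 in MII oocytes, against 9.32, 9.15 and 8.95 in GV oocytes, a fall of 0.54 ± 0.15. Neither was called under equal array medians or quantile normalization. These falls were near those of Cct7 and Cct8 in size, and no difference between the 2 chaperonins was tested.

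**Figure D5:**
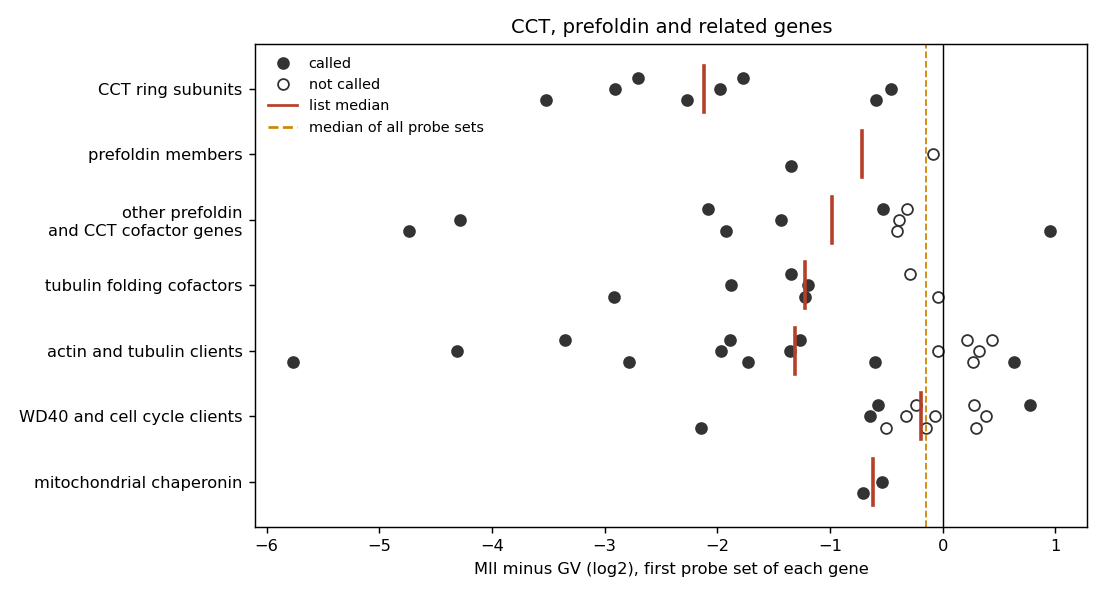
MII minus GV difference (log2) of the first probe set of each measured gene in the CCT ring, the prefoldin members and the related lists (filled points called, open points not called, vertical bars the list medians, dashed line the median of all tested probe sets). The ring median of -2.12 lies leftmost, the tubulin cofactors and the actin and tubulin genes lie near -1.2 and -1.3, and the WD40 and cell cycle clients lie at -0.20.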

How the data were processed

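RNA of 6 oocyte pools was measured on 1 array each. The authors deposited log2 values. RMA and affy are the tools listed in the submitters' processing notes. No genome build, settings or rule for keeping the table's 21702 probe sets is given in the sources used here. The arrays all shared one set of values, so a common step had been applied to them.

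The 56 control features were set aside and the remaining 21646 probe sets were fitted with stage as the only term (limma 3.58.1, R 4.3.3, moderated 2-sided tests). Adjustment was by Benjamini-Hochberg across them, at a threshold of 0.05. Of these, 19078 had 1 symbol, 550 several and 2018 none. Members and gene lists were chosen with earlier results of these data known. Each gene was represented by its 1-symbol probe set of highest mean. All members were named, and from each related list up to 3 called genes with the largest fall and up to 3 with the largest rise, with Actb, Cdc20 and Plk1 in any case. Within-array differences were tested by exact permutation over the 6 arrays. The p-values measure the spread between these samples, and 3 arrays per stage limit the precision. Promoter windows came from RefSeq (GRCm38.p6) and were searched in Python 3.11.15, and the fit was tested on simulated data. Alternatives covered 4 other scales between arrays, variance moderation, filters, thresholds, probe set choice, a replicate block and leaving out each array.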

Additional observations from a re-analysis of the deposited data

How the results depend on the processing

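Under the alternative scales the count of member probe sets called higher was 3 with equal array medians and 2 with quantile normalization, and of member genes 1 and 1. The median difference of the member probe sets was -0.94 with equal medians, -0.90 with quantile normalization, -1.96 with equal hybridization controls, -2.43 with equal poly-A controls and -2.02 over the 18 brighter, on average, than the median probe set. It lay between -1.73 and -1.50 when single arrays were left out. Without probe sets ending in _s_at, _x_at or _a_at, 6 of 8 were lower, against 34.1% of all probe sets of any ending. Signs turned with equal medians for Cct4 1430034_at (0.30), Cct7 (0.031, and 0.10 in 1415817_s_at), Cct8 (0.16), Pfdn5 1415736_at (0.54, called higher), Gnb5 (0.0495) and Hspe1 (0.0827), and for Pfdn2 (0.22), Pfdn4 (0.31), Pdcl (0.24) and Pdcl3 (0.092). With quantile normalization they turned for Cct4 1430034_at (0.30), Cct7 1415817_s_at (0.0804), Cct8 (0.0308), Pfdn5 1415736_at (0.45, called higher), Gnb5 (0.0503), Pfdn2 (0.25) and Pdcl (0.29). With equal hybridization controls they turned for Pfdn5 1460637_s_at (-0.16) and 1438358_x_at (-0.31) and for Cdc20 (-0.0212). With equal poly-A controls they turned for the same Pfdn5 probe sets (-0.63 and -0.77, both called lower), Tube1 (-0.24), Actb (-0.44), Gnb2 (-0.0941) and Cdc20 (-0.49). Leaving out single arrays moved Pfdn5 1438358_x_at between -0.0028 and 0.16. The cause of these shifts in the array scale was not tested. The replicate numbers did not visibly pair the samples. Correlations of same-numbered deviations were 0.091, 0.0289 and 0.0268, and those between different numbers ran from -0.28 to 0.29. With 3 arrays per stage these values cannot exclude pairing. A replicate block left 21 member probe sets lower and 0 higher. No detection calls were available, so low signals limit the size of a fall and also what a missing call or a rise can show.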
